A study of Homo sapiens with 23 samples.

Results

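The genes described here are 40 genes of mitosis and the cell cycle, chosen by name. They include the cyclins and CDK1, the mitotic kinases, the spindle checkpoint, the anaphase machinery, centromere proteins and kinesins. All 40 were detected and tested, among 16370 genes tested in all. The question was whether these genes followed MYBL2, a transcription factor of the cell cycle whose mRNA was lower after doxycycline induced a repressor directed at SVAs.

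SVAs are composite retrotransposons of the hominid genome, and NCCIT is an embryonal carcinoma line that resembles pluripotent stem cells. The cells, named SCi-NCCITs, carried a tetracycline-inducible dCas9-KRAB, a dead Cas9 fused to a repressor domain that deposits H3K9me3. They also carried 2 constitutive sgRNAs directed at SVAs. The paper states that these sgRNAs target LTR5Hs, a further family of transposable elements, as well. RNA was measured in 3 libraries of cells given 2 µg/mL doxycycline for 72 h and in 3 libraries of cells given none. H3K9me3 and YY1 were measured by ChIP-seq in 2 libraries of each condition, and OCT4 in 1 library of each. For H3K9me3 there was 1 more library, from NCCITs that lacked the repressor. The untreated SCi-NCCITs carried the same dCas9-KRAB and sgRNA constructs and were kept in puromycin and a second selection agent. The line was established from isolated clones. No library analysed here came from cells given doxycycline that lacked the constructs, so the effects of doxycycline and of dCas9-KRAB cannot be told apart. Nor can effects through SVAs be told apart from effects through LTR5Hs in the values given here.

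Mitotic genes are expressed in a wave that peaks in G2 and mitosis. Their promoters are held silent in G1 by the DREAM complex, in which the MuvB core binds an element called the CHR next to the start site. Later in the cycle MuvB joins MYBL2 (B-MYB) and then FOXM1, which activate the same promoters. Genes of DNA replication peak earlier, at the transition from G1 to S, and are driven mainly through E2F elements. In a bulk sample their mRNA levels also depend on how many cells are in each phase, and fewer cells in a phase cannot be told apart from less mRNA per cell.

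The libraries held 14683468 to 47862394 estimated counts on genes, and the shallowest was replicate 1 without doxycycline. Defining markers of pluripotency were present in all 6 libraries. POU5F1 (OCT4), for instance, stood at 169.6 to 239.9 CPM (counts relative to the TMM-scaled library size) and SOX2 at 493 to 673 CPM. Of 12 such markers, 7 fell with doxycycline and 0 rose by edgeR, where 8.49% of all genes tested fell and 8.97% rose. By DESeq2 or at an unadjusted p under 0.05, 0 of the 12 were higher. The 7 falls were led by TDGF1, a Nodal co-receptor (log2 fold change −1.13), by L1TD1, an RNA-binding protein (−0.62), and by PRDM14, a transcription factor (−0.60), and DNMT3B, a DNA methyltransferase (−0.60). Of 17 markers of other cell types, 12 were tested and 3 rose, all from low levels, beside the 8.97% of all genes. GATA6, a factor of endoderm, was at 0.662 to 1.16 CPM without and 2.42 to 2.72 CPM with doxycycline, and MIXL1 and NEUROG2, factors of mesoderm and of neural progenitors, lay between 0.302 and 3.36 CPM. The endoderm markers SOX17 and AFP and the mesoderm marker TBXT had at most 0.147 CPM in any library. The summed level of the 17 markers was 168 to 206 CPM without and 174 to 187 CPM with doxycycline. Most of this sum was HAND1, listed as a mesoderm marker like TBXT and MIXL1, so not all mesoderm markers were near zero. The part of these shifts in the results below was not tested.

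The promoters of the 40 genes are rich in the letters of the CHR and of the CCAAT box. Stretches from 150 bases before to 20 bases after the RefSeq start of GRCh38.p14 are shown, 5′ to 3′ on the strand of the gene, for CDC20 and PTTG1, whose mRNA rose, for CCNB1 and PLK1, textbook targets of MuvB, and for BUB1B and KIF2C, whose mRNA fell. Capitals mark TTTGAA or TTTAAA (CHR) and CCAAT, in either direction. In PTTG1 the capitals CCAATTGG are a CCAAT and its reverse complement overlapping.
CDC20, chr1:43358831-43359000, plus strand: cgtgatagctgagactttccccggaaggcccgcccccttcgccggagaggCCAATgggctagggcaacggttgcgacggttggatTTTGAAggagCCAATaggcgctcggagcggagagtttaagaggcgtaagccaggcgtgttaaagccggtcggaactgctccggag
PTTG1, chr5:160421705-160421874, plus strand: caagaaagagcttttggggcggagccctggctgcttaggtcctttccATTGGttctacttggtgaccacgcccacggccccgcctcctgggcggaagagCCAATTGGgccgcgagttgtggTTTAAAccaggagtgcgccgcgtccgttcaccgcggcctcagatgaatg
CCNB1, chr5:69167000-69167169, plus strand: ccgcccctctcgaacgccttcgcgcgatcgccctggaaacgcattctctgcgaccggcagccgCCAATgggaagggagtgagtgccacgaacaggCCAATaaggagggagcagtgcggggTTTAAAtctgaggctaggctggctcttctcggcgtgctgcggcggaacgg
PLK1, chr16:23678739-23678908, plus strand: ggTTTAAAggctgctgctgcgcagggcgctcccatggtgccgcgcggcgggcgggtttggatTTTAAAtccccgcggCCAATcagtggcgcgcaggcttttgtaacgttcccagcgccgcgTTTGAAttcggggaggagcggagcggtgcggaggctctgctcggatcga
BUB1B, chr15:40160919-40161088, plus strand: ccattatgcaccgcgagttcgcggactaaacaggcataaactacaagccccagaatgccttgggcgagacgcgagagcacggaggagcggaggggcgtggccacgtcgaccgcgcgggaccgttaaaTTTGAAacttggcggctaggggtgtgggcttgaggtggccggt
KIF2C, chr1:44739687-44739856, plus strand: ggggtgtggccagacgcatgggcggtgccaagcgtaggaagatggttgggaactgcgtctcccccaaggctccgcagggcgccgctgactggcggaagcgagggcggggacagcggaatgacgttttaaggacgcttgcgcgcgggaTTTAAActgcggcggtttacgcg

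The CHR nearest the start began 65 bases before it in CDC20 and 29 in PTTG1, which rose. It began 23 bases before the start in BUB1B and 3 in KIF2C, which fell. A link between distance and direction was not tested. Of the 40 genes, 30 had a RefSeq promoter of 300 bases, from 250 before to 50 after the start. Of these 30, 25 (83.3%) held TTTGAA or TTTAAA on either strand (TTTAAA reads the same on both), against 16.3% of the promoters of the genes tested and 24.3% of all 27305 promoters. Within the window from 60 bases before to 20 after the start, 18 of the 30 (60%) held a CHR, against 3.98% of the genes tested. CCAAT was found in 24 of the 30 (80.0%), against 36.6% of the genes tested. The letters TTTCGCGC, TTTGGCGC or TTTCCCGC, used here for the E2F element, were found in 4 of the 30 (13.3%), in CDK1, CDC25A, CENPA and NUSAP1. The MYBL2 promoter held none of these letters in its 300 bases. Other spellings of the E2F element were not searched, so this does not show that a promoter without these letters lacks such an element. A match of letters is a description of sequence and does not show binding.

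DNA replication genes, which serve below as the comparison, held the E2F letters more often than the CHR. Of 34 matched promoters of a list of 38 such genes, 19 (55.9%) held the E2F letters and 3 (8.82%) a CHR. Stretches of the same kind are shown for CDT1, which loads the MCM helicase, and MCM7, a subunit of that helicase, both of which fell. Here capitals mark the E2F letters and CCAAT in either direction, and in MCM7 an E2F and a CCAAT match overlap as TTTCGCGCCAAT.
CDT1, chr16:88803639-88803808, plus strand: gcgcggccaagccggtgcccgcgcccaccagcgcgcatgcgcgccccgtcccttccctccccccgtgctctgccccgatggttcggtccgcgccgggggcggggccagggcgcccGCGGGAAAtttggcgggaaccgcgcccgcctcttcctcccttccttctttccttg
MCM7, chr7:100101378-100101547, minus strand: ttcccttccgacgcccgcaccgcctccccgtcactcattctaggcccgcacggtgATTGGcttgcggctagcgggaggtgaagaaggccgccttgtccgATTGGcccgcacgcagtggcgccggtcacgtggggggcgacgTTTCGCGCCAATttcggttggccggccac

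MYBL2, the activator that binds MuvB, fell. Its level was 268, 268 and 251 CPM in the 3 libraries without doxycycline and 181, 191 and 195 CPM in the 3 with it, so that the groups did not overlap. The log2 fold change was −0.47 ± 0.05 (SE, n = 3 and 3), with an adjusted p of 0.000585 (edgeR's quasi-likelihood test, Benjamini-Hochberg over all genes tested). Nothing in the labels says that replicates were separate cultures, so p-values measure the spread between these libraries, which may be technical.

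The 40 mitotic and cell cycle genes were not lower as a group. Of the 40, 2 rose (CDC20 and PTTG1), 4 fell (CCND1, BUB1B, WEE1 and KIF2C), and 34 did not pass the test. The 6 called genes are 15% of the members, where 17.5% of all genes tested were called, 8.97% higher and 8.49% lower. DESeq2, run as an alternative, called 9 of the 40, the same 6 together with CDK1 and PRC1 higher and MKI67 lower. The median log2 fold change was −0.01 over the 40 genes and 0.00 over all genes, and 19 of the 40 values were above zero. The groups did not overlap for 8 members that were higher and 8 that were lower with doxycycline, against 19.2% and 17.8% of all genes in each direction.

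Summed over the 40 genes, the level was 6599, 7126 and 7162 CPM without and 6879, 6888 and 7081 CPM with doxycycline. The 2 groups overlapped, and the mean of the treated libraries was 0.998 of that of the untreated ones. Per length, the sums were 4322 ± 151 and 4420 ± 85.5 TPM (SD, n = 3 each). Relative to these genes, MYBL2 thus stood lower in each treated library, at 2.63, 2.77 and 2.75 CPM per 100 CPM of the 40 genes, against 4.05, 3.76 and 3.51 without doxycycline. For 36 of the 40 genes the ratio to MYBL2 was higher in every treated library than in every untreated one, where 75.0% of all genes gave the same result.

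**Figure D1:**
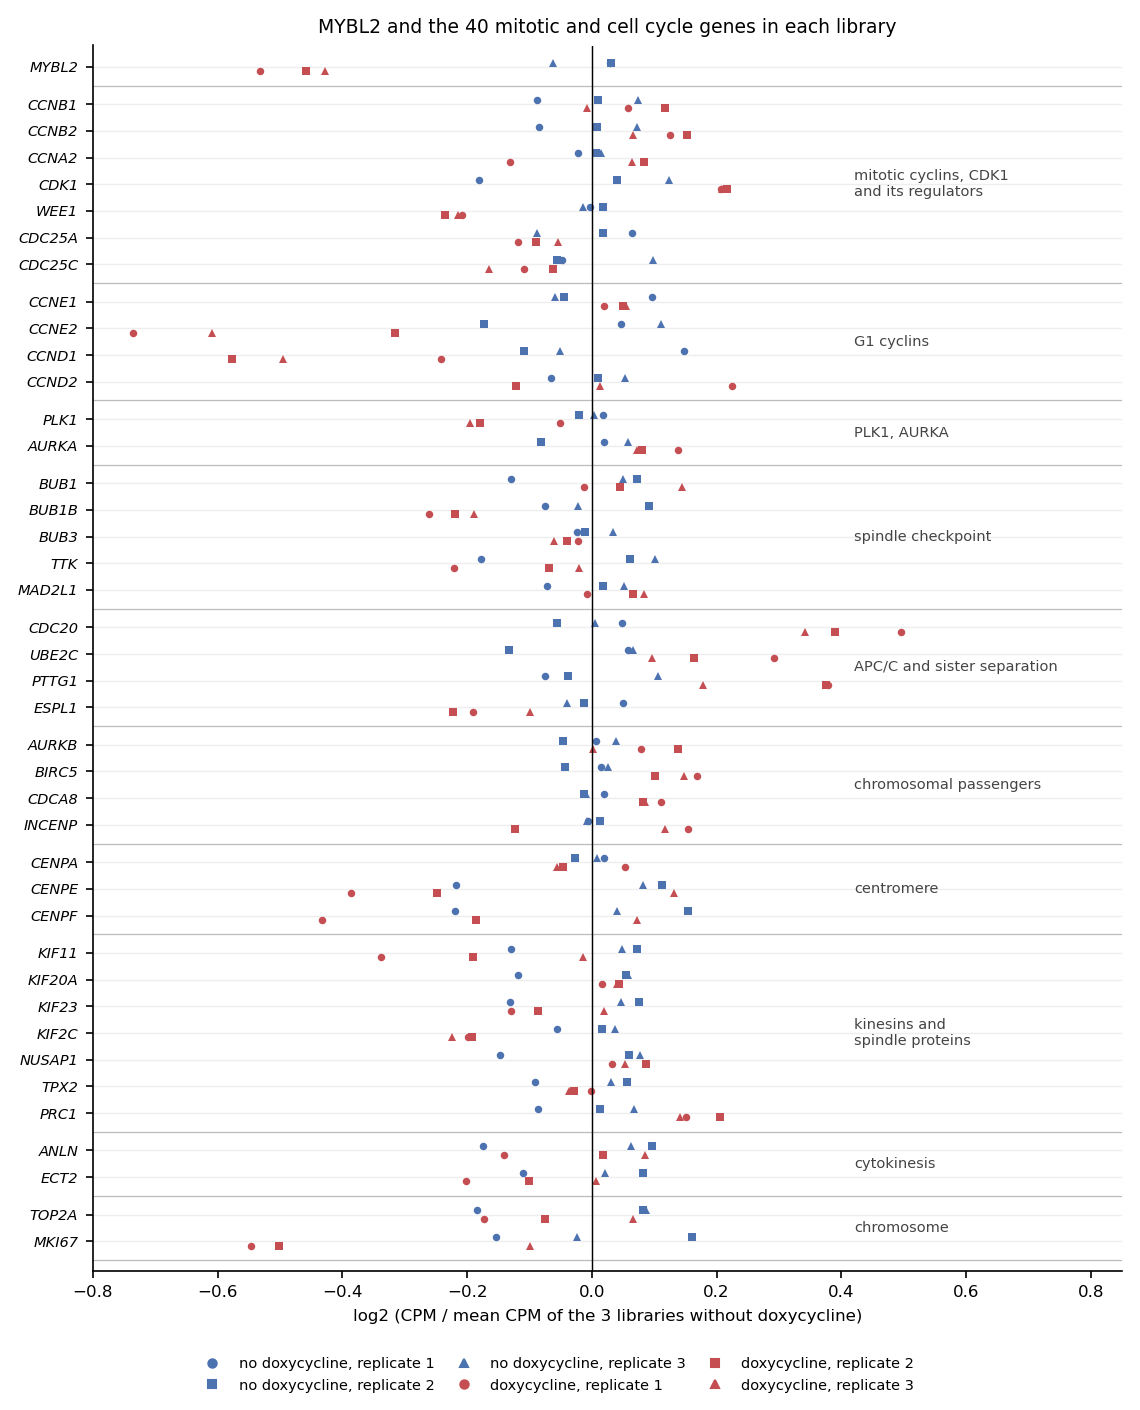
Level of MYBL2 and of each of the 40 genes in the 6 RNA libraries, as log2 of the CPM over the mean of the 3 libraries without doxycycline (x axis; 1 row per gene, grouped by role; blue without, red with doxycycline; the marker gives the replicate). MYBL2 lies to the left in all 3 treated libraries, while most of the 40 genes scatter around zero and CDC20 and PTTG1 lie to the right.

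Among the mitotic cyclins, CDK1 and its regulators, 1 of 7 genes was called. CCNB1 encodes cyclin B1, the partner that drives CDK1 into mitosis, and was among the most abundant of the 40 genes, at 309 TPM without doxycycline. Its libraries stood at 301, 322 and 336 CPM without and 333, 346 and 318 CPM with doxycycline, which overlap. The log2 fold change was 0.06 ± 0.06 (SE; adjusted p = 0.558, edgeR), with a 95% interval from −0.08 to 0.19.

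CDK1, the kinase of mitotic entry, was at 117, 136 and 144 CPM without and 153, 154 and 153 CPM with doxycycline. The treated libraries were all above the untreated ones, yet the gene did not pass the test over all genes (log2 fold change 0.21 ± 0.07, adjusted p = 0.0891, edgeR). DESeq2 called it higher (adjusted p = 0.0431). CCNB2 and CCNA2, the other mitotic cyclins, gave 0.11 and 0.01. CDC25A and CDC25C, phosphatases that activate CDK complexes, gave −0.08 and −0.11, and neither was called.

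WEE1, the kinase that inhibits CDK1, fell. It was at 131, 133 and 130.1 CPM without and 114, 112 and 113 CPM with doxycycline, and the spread within each group was small. The log2 fold change was −0.22 ± 0.05 (adjusted p = 0.0139, edgeR).

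Of the 4 G1 cyclins, CCND1 fell. Cyclin D1 partners CDK4 and CDK6 and is induced by mitogens rather than by MuvB complexes. CCND1 was at 132, 111 and 115 CPM without and 101, 80.1 and 84.8 CPM with doxycycline, and its log2 fold change of −0.43 ± 0.10 (adjusted p = 0.0161, edgeR) was the largest fall among the called genes of the list. CCND2, the more abundant D-type cyclin of these cells per length (63.6 against 48.4 TPM without doxycycline), gave 0.04 with a 95% interval from −0.15 to 0.23.

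CCNE1, cyclin E1 of the entry into S phase, was at 27.3, 24.7 and 24.5 CPM without and 25.8, 26.4 and 26.5 CPM with doxycycline (log2 fold change 0.05 ± 0.07, adjusted p = 0.654, edgeR). Its paralog CCNE2 had the lowest level of the 40 genes, 1.64 to 2.00 CPM without and 1.11 to 1.49 CPM with doxycycline. The groups of CCNE2 did not overlap and the value was −0.54 ± 0.19, but it was not called (adjusted p = 0.0770, edgeR) and its 95% interval ran from −0.96 to −0.12.

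Neither of the mitotic kinases PLK1 and AURKA was called by edgeR or DESeq2. PLK1, which acts from mitotic entry to cytokinesis, was at 174, 169.8 and 173 CPM without and 166, 152 and 150.5 CPM with doxycycline. All treated libraries were lower, and the log2 fold change was −0.14 ± 0.06 (unadjusted p = 0.0334 and adjusted p = 0.120, edgeR). AURKA, the Aurora kinase of the spindle poles, gave 0.10 with a 95% interval from −0.03 to 0.22.

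The spindle checkpoint delays anaphase until all kinetochores are attached, and 1 of its 5 genes here fell. BUB1B, which encodes the checkpoint protein BUBR1, was at 205, 229.8 and 212 CPM without and 179.9, 185 and 189 CPM with doxycycline. The treated libraries lay below the untreated ones, with a log2 fold change of −0.22 ± 0.06 (adjusted p = 0.0291, edgeR). The other checkpoint genes were not called and lay between −0.11 for TTK (MPS1), the kinase that starts the checkpoint signal, and 0.06 for BUB1, a kinase at the kinetochore, with BUB3 at −0.04 and MAD2L1 at 0.05.

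Anaphase starts when CDC20 and the ubiquitin ligase APC/C mark securin for destruction. Both genes called higher by edgeR act at this step, while CDK1 and PRC1, which DESeq2 also called higher, act elsewhere in mitosis. CDC20, the activator of the APC/C, was at 352, 327 and 341 CPM without and 479, 445 and 431 CPM with doxycycline. The lowest treated library was thus above the highest untreated one, and the log2 fold change was 0.41 ± 0.06 (adjusted p = 0.00189, edgeR; 95% interval from 0.28 to 0.54). This was the largest rise of the 40 genes.

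PTTG1, which encodes securin, the inhibitor of separase, was at 158, 162 and 179 CPM without and 216, 216 and 188 CPM with doxycycline. Its log2 fold change was 0.31 ± 0.07 (adjusted p = 0.0194, edgeR). PTTG1 has near-identical copies, PTTG2 and PTTG3P, between which reads could be split, and both were listed at 0 counts in every library. UBE2C, the E2 enzyme of the APC/C, gave 0.19 (adjusted p = 0.114, edgeR), and ESPL1, separase itself, gave −0.17 (adjusted p = 0.0702, edgeR).

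**Figure D2:**
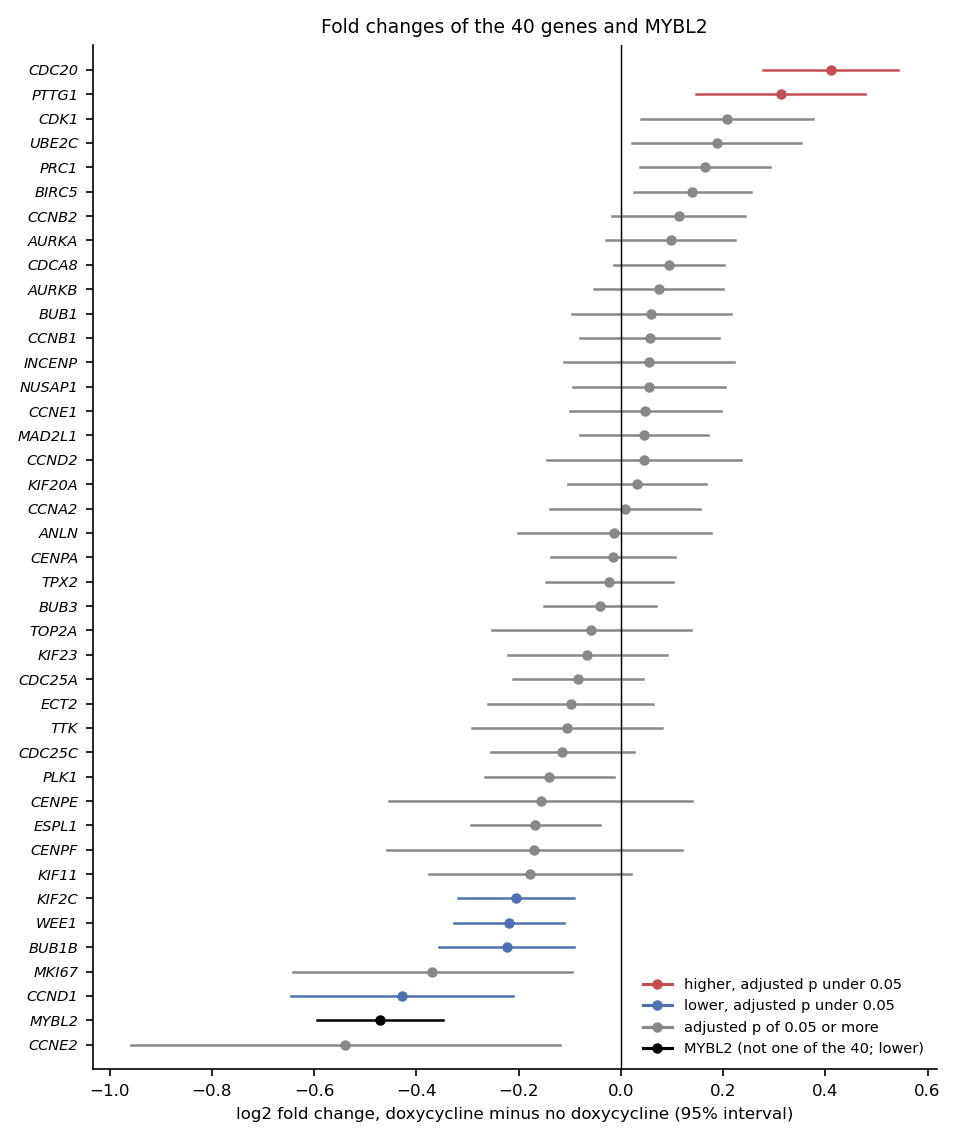
Log2 fold change with its 95% interval for the 40 genes and MYBL2, in order of size (x axis, doxycycline minus no doxycycline). CDC20 (0.41) and PTTG1 (0.31) rose and CCND1, BUB1B, WEE1 and KIF2C fell, while the intervals of most other genes cross zero.

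The chromosomal passenger complex, which corrects faulty attachments of chromosomes, had no called gene among its 4 by edgeR or DESeq2, and 1, BIRC5, at an unadjusted p under 0.05. Its kinase AURKB was at 136, 131 and 139 CPM without and 143, 149 and 135 CPM with doxycycline (log2 fold change 0.07 ± 0.06, adjusted p = 0.395, edgeR). The targeting subunit BIRC5 (survivin) gave 0.14, CDCA8 (borealin) 0.09 and the scaffold INCENP 0.06.

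None of the 3 centromere genes was called by edgeR or DESeq2, and 0 had an unadjusted p under 0.05. CENPA, the histone H3 variant that marks centromeres, was at 54.0, 52.3 and 53.6 CPM without and 55.3, 51.6 and 51.3 CPM with doxycycline (−0.01 ± 0.05, adjusted p = 0.879, edgeR). Its value changed sign with the scaling and length settings, within 0.1 of zero. CENPE, a kinetochore motor, and CENPF, a large kinetochore protein, gave −0.16 and −0.17 with wide 95% intervals, from −0.45 to 0.14 and from −0.46 to 0.12.

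Of the 7 kinesins and spindle proteins, KIF2C fell. This kinesin (MCAK) depolymerizes microtubules at centromeres. It was at 334, 351 and 357 CPM without and 303, 304 and 298 CPM with doxycycline, with a log2 fold change of −0.21 ± 0.05 (adjusted p = 0.0226, edgeR).

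KIF11 (Eg5), the kinesin that pushes spindle poles apart, was at 105, 120.4 and 118 CPM without and 90.7, 100.3 and 113 CPM with doxycycline. These ranges overlap, and the gene was not called (−0.18 ± 0.09, adjusted p = 0.195, edgeR). PRC1, the bundler of the central spindle, gave 0.17 without overlap of the groups and an adjusted p of 0.0740 by edgeR, while DESeq2 called it higher (adjusted p = 0.0359). KIF20A and KIF23, kinesins of the central spindle, gave 0.03 and −0.07, and the spindle assembly factors NUSAP1 and TPX2 gave 0.05 and −0.02.

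The cytokinesis genes ANLN (anillin) and ECT2, the exchange factor for RhoA, gave −0.01 and −0.10, and 0 of the 2 were called by edgeR, called by DESeq2 or had an unadjusted p under 0.05. TOP2A, the topoisomerase that untangles sister chromatids, was the most abundant of the 40 genes by CPM. It was at 490.1, 589 and 591 CPM without and 494, 529 and 583 CPM with doxycycline (−0.06 ± 0.09, adjusted p = 0.686, edgeR). The sign turned with the length trend described below removed.

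MKI67 encodes Ki-67, the coat protein of mitotic chromosomes that is widely used to mark dividing cells. Its libraries were at 294, 366 and 322 CPM without and 224, 231 and 305 CPM with doxycycline. The third treated library lay within the untreated range, and the gene was not called (−0.37 ± 0.12, adjusted p = 0.0656, edgeR). It passed in 8 of 15 alternative settings, among them a test without the third treated library and one without the first untreated library.

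Across roles, the 34 genes that were not called ran from −0.54 (CCNE2) to 0.21 (CDK1). The 95% interval lay wholly within 0.5 of zero for 36 of the 40 genes, against 10113 of the 16370 genes tested. For 37 of the 40 genes the interval lay wholly above −0.47, the value of MYBL2, against 12232 of the 16370. The interval of MYBL2 itself ran from −0.59 to −0.35.

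Of the 6 calls, CDC20 held in all 15 alternative settings in which it was refitted, CCND1 in 14, WEE1 in 13, PTTG1 in 11, BUB1B in 10 and KIF2C in 9. Their directions did not change in these settings. Without the second treated library it was the only one of the 40 genes called, and without the second untreated library 2 were called.

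Other genes of the cell cycle were counted by list, beside the 17.5% of all genes called (8.97% higher, 8.49% lower). Of 38 DNA replication genes, 22 fell and 0 rose by edgeR, with a median log2 fold change of −0.25. At an unadjusted p under 0.05, 1 gene was higher, TK1 (thymidine kinase, named after its values were seen), which DESeq2 called. MCM4, a helicase subunit, was at 127 to 135 CPM without and 45.0 to 75.3 CPM with doxycycline (−1.23). CDT1 gave −0.46 and MCM5, another helicase subunit, −0.46. The summed level of the 38 genes was 3617, 3590 and 3436 CPM without and 2867, 2981 and 2956 CPM with doxycycline. No treated library reached the lowest untreated one, in contrast to the sum of the 40 mitotic and cell cycle genes, whose groups overlapped.

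**Figure D3:**
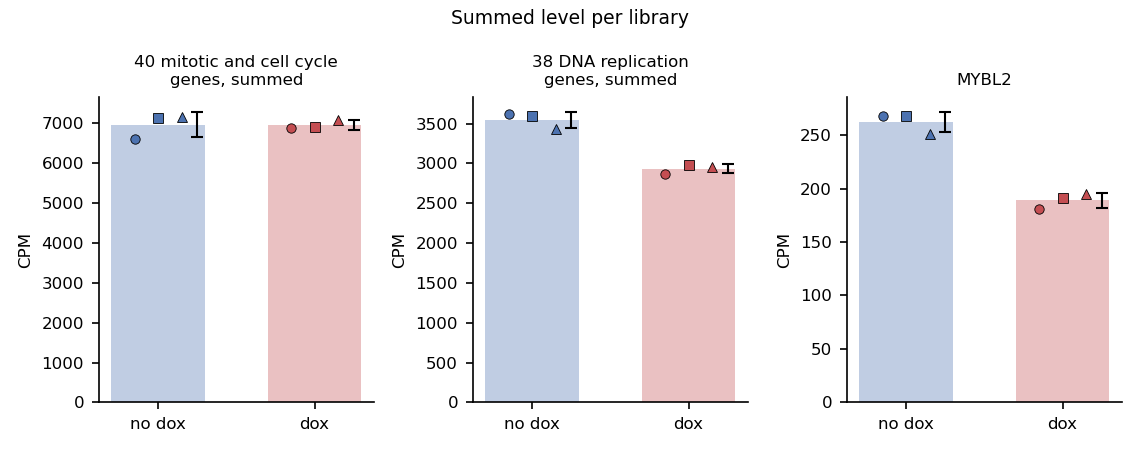
Summed CPM of the 40 mitotic and cell cycle genes, of 38 DNA replication genes, and CPM of MYBL2 (y axes from 0) in libraries without and with doxycycline. Bars are means of 3 libraries, error bars SD and points single libraries. The groups overlap in the first panel and are apart in the other two.

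Of 20 genes of MuvB, MYB, FOXM1, the E2F family and the RB family, 6 fell and 0 rose by edgeR, and 0 were higher by DESeq2 or at an unadjusted p under 0.05. E2F2, an activator of S phase genes, was at 13.6 to 17.0 CPM without and 6.46 to 6.70 CPM with doxycycline (−1.18), followed by MYBL2, by RBL1 (p107), a pocket protein of DREAM (−0.35), and by LIN54 (−0.31), the MuvB subunit that binds the CHR. FOXM1, which takes over from MYBL2 on MuvB, was at 237, 247 and 231 CPM without and 225, 219 and 233 CPM with doxycycline (−0.08 ± 0.05, adjusted p = 0.342, edgeR). E2F1 gave −0.15 (adjusted p = 0.232, edgeR). This list lost calls readily. Only 2 genes were called with length-scaled counts and 2 without the second treated library.

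Of 50 further genes of the kinetochore, condensin and the spindle, 7 rose and 4 fell (14% and 8%, near the shares over all genes), and the median was −0.06. The largest changes were those of SPC24, a subunit of the NDC80 complex (0.52), CENPT, which links that complex to the centromere (0.42), CENPW, its partner (0.39), and NCAPG2, a subunit of condensin II (−0.38). Of 17 genes of the APC/C and its E2 enzymes, 3 rose by edgeR and 0 fell, with 0 lower by DESeq2 or at an unadjusted p under 0.05, namely the subunit CDC26 (0.43), the E2 enzyme UBE2S (0.43) and the subunit ANAPC11 (0.36), alongside their activator CDC20. Leaving out 1 library cut these 3 calls to 1 in 4 of the 6 cases, when any library but the first untreated and the third treated one was left out.

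A list of 23 genes held 7 CDK inhibitors, 10 genes of arrest and the p53 response, and 6 cell cycle kinases, cyclins and phosphatases. Of the 23, 3 were called (13.0%, near the share over all genes). CDKN2A, which encodes the inhibitor p16 and ARF, rose (0.51), as did CCND3 (0.33), cyclin D3, an activator of CDK4 and CDK6. SESN2, a target of p53, fell (−0.39). CDKN1A (p21), the main effector of p53 in arrest, was at 8.92 to 9.07 CPM without and 6.51 to 9.64 CPM with doxycycline (−0.22, adjusted p = 0.321, edgeR). CDKN1B (p27) gave 0.11 (adjusted p = 0.313, edgeR). No gene of this list was called without the third untreated library.

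Among the 40 genes, the fold change varied with transcript length. Pearson's r between the log2 fold change and log2 length was −0.50 over the 40 genes and −0.12 over all genes tested, given as a description, since the genes share the same 6 libraries. The trend was not particular to the 40 genes. It was −0.72 in the APC/C list, −0.56 in the regulators and −0.46 in the kinetochore, condensin and spindle list. In the list of CDK inhibitors and arrest genes it was −0.45, and in the DNA replication list −0.34. The marker lists did not show it, with 0.29 in the pluripotency markers and 0.003 in the markers of other cell types. The 10 shortest genes (725 to 1680 bases) had a median of 0.07 on the log2 scale and the 10 longest (3479 to 11661 bases) one of −0.11. Replicate 1 of both conditions was the lowest library of its group for the longest genes. Length was taken into account in 2 further fits, with length-scaled counts and, added after the values were seen, with the trend of each library on transcript length removed. With length-scaled counts, 4 of the 40 genes were called. CDC20 and PTTG1 were higher and CCND1 and WEE1 lower, while BUB1B (adjusted p = 0.0754, edgeR) and KIF2C (adjusted p = 0.0513, edgeR) lost their calls.

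The trend removed was that of each library over all genes, and a part of it remained in the lists. Pearson's r was then −0.18 over the 40 genes and 0.03 over all genes tested. In the other cell cycle lists it ran from −0.50 (APC/C) to −0.14 (DNA replication). In this fit, 6 genes were called. CDC20 remained higher (0.37) and CCND1, BUB1B, WEE1 and KIF2C remained lower. PTTG1, the shortest of the 40 genes, was then not called (adjusted p = 0.0610, edgeR), and MKI67, the longest, was called lower (−0.22, adjusted p = 0.0286, edgeR). The DNA replication list then had 25 genes lower and 0 higher. CENPW of the kinetochore list, a transcript of 646 bases, was then not called (adjusted p = 0.0706, edgeR).

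YY1, a zinc finger factor of active promoters, was found at most of these genes in every library. A YY1 peak lay within 1000 bp of the start in 33 and 33 of the 40 genes without doxycycline and in 36 and 38 with it. The difference of 4 genes gave p = 0.333 in a two-sided exact permutation test over libraries, the smallest value that 2 against 2 allows. Among all genes tested, 65.8% and 62.5% had such a peak without and 70.0% and 71.4% with doxycycline. The treated lists also held more peaks in all, 82005 and 115673 against 56370 and 76098, and the part of this in the difference was not tested.

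Of the 40 genes, 32 (80%) had the peak in all 4 YY1 libraries, against 56.4% of all genes tested and 78.95% of the DNA replication list. Among the 32 were the 6 called genes, and MYBL2 had the peak in all 4 libraries too. BUB1, ESPL1 and INCENP, named here after their values were seen, had it in both treated libraries and in neither untreated one (3 of 40, against 2.11% of all genes tested). Their peaks were weak, at 2.98 to 4.01 fold enrichment, where BUB1B had 25.8 to 42.7. CCNE2 had none in any library.

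H3K9me3, the mark that dCas9-KRAB deposits, was found within 1000 bp of the start of 1 of the 40 genes, KIF2C. With doxycycline the KIF2C peaks were at chr1:45200939-45205285 and chr1:45201105-45205344 of hg19, upstream of the gene (chr1:45205490-45233439, plus strand), with 20.7 and 7.50 fold enrichment. Without doxycycline, replicate 1 had a shorter peak at chr1:45202686-45204699 with 7.20 fold enrichment and replicate 2 had none, and the single library of NCCITs without dCas9-KRAB had none. Over all genes tested, 5.27% and 3.38% had such a peak without and 4.30% and 3.89% with doxycycline, so 1 of 40 is near the background. MYBL2 had none in any library. KIF2C is one of the 4 genes that fell. The number of the 40 genes with such a peak was 1 and 1 with and 1 and 0 without doxycycline (two-sided exact permutation p = 1, n = 2 and 2, with 0.333 the smallest value allowed).

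OCT4 peaks lay near 14 of the 40 genes without and 5 with doxycycline. With 1 library of each condition this difference has no replicate check. Over all genes tested the share was 40.3% without and 4.47% with doxycycline, or 6589 and 732 genes. The treated list held 23352 peaks in all against 50775. Fewer peaks were thus called in that library, with a larger proportional fall at gene starts than in the whole list. The cause of this was not tested.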

How the data were processed

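RNA was measured in 6 libraries of SCi-NCCITs, 3 with and 3 without doxycycline, and grouped by the labels. The authors trimmed adapters with TrimGalore! and deposited estimated counts and TPM of kallisto per transcript (version and index not given in the sources used here). For ChIP-seq the authors aligned reads to hg19 with BWA MEM, left out duplicates and reads of mapping quality 10 or less and called peaks per sample at a 5% FDR. The deposited peak lists give fold enrichment as a ratio and p- and q-values as −log10. A HiChIP table has 12 columns of single samples in all and 4 of coverage, which had no clear condition and were left out.

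Each gene of GENCODE v44lift37 received the sum of its transcripts' estimated counts (88.2% of transcripts and 95.9% of counts matched). The sums were rounded, filtered with filterByExpr, scaled by TMM and tested by quasi-likelihood (glmQLFit and glmQLFTest of edgeR 4.0.16, R 4.3.3) with Benjamini-Hochberg adjustment at 0.05. CPM are TMM-scaled. Gene length is the TPM-weighted transcript length in the untreated libraries. Peaks were counted at the start of the canonical transcript with at least 1 bp of overlap. Promoter letters were taken from RefSeq (GRCh38.p14). Python 3.11.15, numpy 2.4.6, pandas 2.3.3, scipy 1.17.1 and matplotlib 3.10.9 were used. The edgeR and DESeq2 fits and the fit with the length trend removed were tried on simulated gene counts with known changes.

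The 40 genes and all lists were chosen with earlier results of these data known. Full values are given for the called members, for CCNB1, CDK1, PLK1, AURKB, BUB1B, CENPA, KIF11, TOP2A, MKI67, CCNE1 and CCND1, and for MYBL2. Of each other list the 4 called genes with the largest change are named, and FOXM1, E2F1, CDKN1A and CDKN1B always. 1 gene set by this rule is not reported here. DESeq2 1.42.0, the test the study names, was an alternative, beside other scalings, filters, a replicate block, length-scaled counts, thinning, a fold threshold and leaving out each library. Intervals cover the spread between libraries only.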

Additional observations from a re-analysis of the deposited data

How the results depend on the processing

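MYBL2 kept its direction and its call in all 15 alternatives, between −0.50 and −0.45, and the median of the 40 genes stayed between −0.04 and 0.01. A further threshold of 0.5 on the log2 fold change, up or down, left 975 of all genes, 0 of the 40 mitotic and cell cycle genes, 1 regulator, 2 DNA replication genes, 1 kinetochore gene, 0 APC/C genes and 1 gene of the list of CDK inhibitors, arrest genes and cell cycle kinases (the arrest list). Length-scaled counts called 1878 genes, 4 of the 40 genes (2 higher, 2 lower), 2 regulators, 6 kinetochore genes, 1 gene of the arrest list and 1 marker of other cell types, and the thinned libraries 3 regulators and 1 such marker. DESeq2 also called 1 such marker, and removing the length trend (chosen after seeing the data) 5 genes of the arrest list. Leaving out 1 library at a time gave 1396 to 3260 calls over all genes, 1 to 7 over the 40 genes, 2 to 7 regulators, 13 to 21 DNA replication genes, 5 to 9 kinetochore genes, 1 to 3 APC/C genes, 0 to 3 genes of the arrest list and 1 to 3 other markers. The lowest counts over all genes came without the second treated library (1396) and without the second untreated one (1468). All these counts came from fewer samples. The highest of them nevertheless exceeded the main fit, which called 2858 of all genes, 6 of the 40 genes and 6 regulators. The causes of these differences were not tested. AURKB and TOP2A turned to −0.0113 and 0.0290 with the length trend removed. CENPA turned to 0.000165 with library size only and to 0.0640 with length-scaled counts, and ranged from −0.0544 to 0.00671 with 1 library left out. With a replicate block, 7 of the 40 genes (2 higher, 5 lower) and 3316 of all genes were called. Deviations of same-numbered libraries correlated at 0.13, 0.08 and 0.00, and those of differently numbered ones at −0.13 to 0.06. These few values cannot settle whether the numbers pair the libraries, and the main fit did not pair them. Depth limited CCNE2 most, with 28 counts in its lowest library.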

Other observations

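The share of the main transcript is given for 3 members whose gene level was not called and which were chosen because these shares were apart, so no result is read from them. For CENPE, the transcript with the most counts (8241 bases) held 70.1%, 61.5% and 64.8% of the counts without and 45.5%, 51.7% and 46.2% with doxycycline. For MKI67, the longest isoform (12716 bases) held 57.8%, 60.7% and 58.1% without and 42.7%, 46.5% and 56.8% with doxycycline. For CENPA, the main transcript (1389 bases) held 72.2%, 74.3% and 72.9% without and 64.0%, 56.7% and 67.0% with doxycycline. The groups of the 3 genes do not overlap, and with 3 against 3 an exact permutation test cannot go below p = 0.10. The shares come from an estimate that divides reads between overlapping transcripts. For 22 of the 40 genes a single transcript held over 80% of the counts.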
